A study of Caenorhabditis elegans with 9 samples.

Results

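The genes described here are 10 RNA-binding regulators of oocyte maturation and of stored maternal messengers in Caenorhabditis elegans, taken by name from a table of 46986 genes: oma-1, oma-2, lin-41, puf-3, puf-5, puf-11, spn-4, pos-1, mex-3 and mex-5. All 10 were found, and all 10 were expressed well enough to be among the 14730 genes tested. RNA of whole worms was sequenced in 9 libraries, 3 in each of 3 groups. FA worms had the high-fat condition together with farrerol, a plant flavanone, HFD worms had the high-fat condition alone, and OP worms were the controls, whose table columns carry the name OP50, the usual Escherichia coli food of laboratory worms. Per the series title the fat was induced with citrate. The sources used here state no strain, sex, age or dose, and do not say whether replicates were separate cultures. The p-values below therefore speak only of library-to-library spread, part of which may be technical.

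In the adult hermaphrodite gonad, oocytes grow with little or no new transcription and store messengers that are translated only at maturation or in the embryo. The storage and timed release depend on RNA-binding proteins. LIN-41 holds the growing oocyte back from maturing, the paired OMA proteins are needed for maturation, and PUF proteins silence stored messengers in late oogenesis. SPN-4, POS-1, MEX-3 and MEX-5 act mainly after fertilization, when they divide the early embryo into anterior and posterior fates. A secreted signal from sperm, the major sperm protein, triggers maturation through the gonadal sheath.

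The genes lie on 4 of the autosomes in build WBcel235, and 0 of the 10 lie on chromosome X, which holds 13.9% of the protein-coding genes tested. On chromosome IV are oma-1 (WBGene00003864, 8888976 to 8890999), puf-3 (WBGene00004239, 13510307 to 13512162), puf-11 (WBGene00022257, 6421585 to 6423497) and mex-5 (WBGene00003230, 13353723 to 13356104). Chromosome V holds oma-2 (WBGene00003865, 8029439 to 8031214), spn-4 (WBGene00004984, 6783187 to 6784903) and pos-1 (WBGene00004078, 8414086 to 8415254). Chromosome I holds lin-41 (WBGene00003026, 9334800 to 9342496) and mex-3 (WBGene00003229, 127285 to 134270), and puf-5 (WBGene00004241, 8575541 to 8577787) is on chromosome II. All are protein-coding, and 8 of them have 1 annotated coding transcript each, while lin-41 has 4 and mex-3 has 5.

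A feature of the annotation that played no part in their choice is a long 3′ untranslated region, the part of a messenger where many such regulators bind. The longest annotated one measured 1165 bases in lin-41, 688 in mex-3, 561 in mex-5, 467 in oma-1, 466 in spn-4, 371 in puf-5, 314 in pos-1, 294 in oma-2, 211 in puf-3 and 188 in puf-11. All 10 were longer than 131 bases, the median over 16805 protein-coding genes with an annotated 3′ untranslated region, and their own median was 418.5 bases. Only puf-3 and spn-4 overlap another gene. The overlap of puf-3 is with afmd-2 on the opposite strand, without overlap of exons, and afmd-2 reached at most 21.2 FPKM. The overlap of spn-4 is with ZC404.15, also on the opposite strand. Exons of these genes overlap, and ZC404.15 reached at most 0.783 FPKM.

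Reads recovered from the FPKM values and summed over all genes ran from 17514542 to 21419867 per library. A gene of the 10 had between 341 and 4151 reads in a library, so that counting error alone was 5.42% at the fewest and 1.55% at the most. Levels are in FPKM, a unit that divides the reads of a gene by its length and by the size of the library, so that genes can be set side by side. In bulk RNA of whole worms, fewer oocytes and less RNA per oocyte cannot be told apart.

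By mean FPKM, spn-4 was the most abundant of the 10 in each group and lin-41 the least. The levels of spn-4 averaged 49.1 FPKM in FA, 61.0 in HFD and 109.9 in OP, and those of lin-41 11.4, 9.75 and 13.4 FPKM in the same groups. Between these ends, neighbours in the order had overlapping libraries, apart from pos-1 and oma-1 in HFD (43.4 to 53.8 against 31.6 to 36 FPKM). The libraries of lin-41 did not overlap those of its next neighbour, which was oma-2 in FA (at least 12.4 FPKM, against at most 11.8 in lin-41) and in HFD, and mex-3 in OP. By mean level puf-5 ranked 8 in FA and HFD and 4 in OP.

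**Figure D1:**
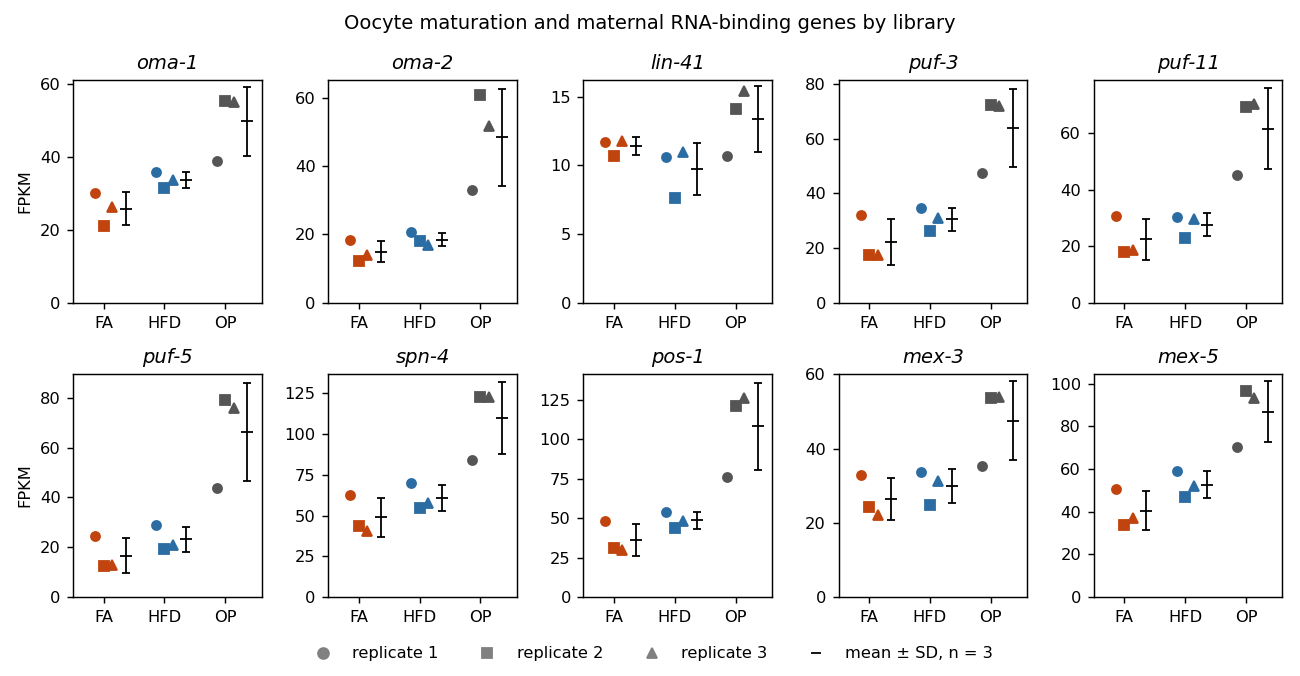
FPKM of each of the 10 genes in every library, with 1 panel per gene and its own linear axis from 0; points are libraries by replicate and bars are mean ± SD over n = 3. In 9 genes each FA and HFD library lies below each OP library, with the narrowest gap in mex-3 (at most 33.8 FPKM in HFD against 35.2 in OP replicate 1); in lin-41 the groups overlap.

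Among the maturation regulators, oma-1 encodes a CCCH zinc finger protein that is removed soon after the first embryonic division. It had 30.3, 21.1 and 26.4 FPKM in the FA libraries, 36, 31.6 and 33.7 in HFD, and 39.0, 55.4 and 55.2 in OP (replicates 1, 2 and 3). The 3 groups did not overlap in oma-1, with FA lowest and OP highest. Its partner oma-2, which can largely replace it, had 18.3, 12.4 and 14.1 FPKM in FA, 20.6, 18.2 and 16.8 in HFD, and 32.9, 60.8 and 51.6 in OP. Both high-fat groups lay below all OP libraries in oma-2 and overlapped each other.

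lin-41 encodes a TRIM-NHL protein that also sets the timing of larval skin development. It had 11.7, 10.7 and 11.8 FPKM in FA, 10.6, 7.60 and 11 in HFD, and 10.7, 14.1 and 15.4 in OP. OP replicate 1 lay within the range of the other groups, so the groups overlapped in lin-41.

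Of the Pumilio-family genes, puf-5 encodes a repressor of glp-1 messenger in late oogenesis. It had 24.6, 12.4 and 12.7 FPKM in FA, 28.8, 19.4 and 21.0 in HFD, and 43.7, 78.9 and 76 in OP. The closely related genes puf-3 and puf-11 differed little from each other in any library, with puf-3 at 32.1, 17.5 and 17.4 FPKM in FA, 34.6, 26.1 and 31 in HFD, and 47.4, 72.3 and 71.9 in OP. Levels of puf-11 were 30.8, 18 and 18.7 FPKM in FA, 30.2, 23 and 29.7 in HFD, and 45.1, 69.0 and 70.4 in OP. All 3 genes were lower in every FA and HFD library than in any OP library. Because puf-3 and puf-11 are near copies, reads could be split between them, and their separate values are uncertain.

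Of the embryonic regulators, spn-4 encodes a protein with an RRM domain that also associates with the OMA and LIN-41 complexes. Its values were 62.9, 43.7 and 40.8 FPKM in FA, 70.0, 54.9 and 58.0 in HFD, and 84.2, 123 and 123 in OP. pos-1, a CCCH gene of posterior fate, had 47.8, 30.9 and 29.9 FPKM in FA, 53.8, 43.4 and 48.1 in HFD, and 75.8, 121 and 126 in OP. In both genes the FA and HFD libraries overlapped each other and lay below OP.

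mex-5, a CCCH gene that polarises the one-cell embryo, had 50.8, 33.7 and 37.1 FPKM in FA, 59, 46.8 and 52.2 in HFD, and 70.3, 96.5 and 93.1 in OP. mex-3, a KH-domain gene that keeps pal-1 messenger silent in anterior cells, had 32.9, 24.2 and 22.1 FPKM in FA, 33.8, 24.7 and 31.2 in HFD, and 35.2, 53.5 and 53.8 in OP. All HFD and FA libraries were below OP in both, by the narrowest margin in mex-3.

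Within groups the 10 genes varied together by library. FA replicate 1 was the highest FA library in 9 of the 10, HFD replicate 1 the highest HFD library in 9, and OP replicate 1 the lowest OP library in all 10. The coefficient of variation had a median of 23.4% in FA, 13.5% in HFD and 22.4% in OP, and was largest in puf-5 in each group (42%, 21.8% and 29.5%). Since replicates of a group have no order, these are differences between single libraries. FA replicate 1 and OP replicate 1 also stood apart in the oocyte and sperm marker lists given further on.

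HFD against OP asks what differed with the high-fat condition. Of the 10, 7 fell past the threshold, against 4.62% of all genes tested that were called lower, and 0 rose, against 2.74% called higher. The call is an adjusted p under 0.05 in limma on log2(FPKM + 1). All 10 log2 fold changes were negative, from -1.45 to -0.42, with a median of -0.92 where the median of all genes tested was 0.01.

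The largest fall was in puf-5, to 23.1 ± 5.04 FPKM in HFD, against 66.2 ± 19.5 in OP (SD, n = 3 each; log2 fold change -1.45, SE 0.29, limma adjusted p = 0.0164). oma-2 fell to 18.5 ± 1.94 FPKM in HFD, against 48.4 ± 14.2 in OP (-1.3, SE 0.22, limma adjusted p = 0.00787). Their HFD means were 34.9% and 38.3% of the OP means. Also called lower were puf-11 (-1.11, adjusted p = 0.0198), pos-1 (-1.10, 0.0179), puf-3 (-1.02, 0.0333), spn-4 (-0.83, 0.0352) and mex-5 (-0.70, 0.0438). The other 3 did not pass: mex-3 had a log2 fold change of -0.64 (95% interval -1.09 to -0.18, adjusted p = 0.0932), oma-1 -0.53 (-0.91 to -0.15, 0.0929) and lin-41 -0.42 (-0.81 to -0.04, 0.181).

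Every HFD library was below every OP library in 9 of the 10 genes, all but lin-41, against 16.6% of all genes tested. The count of 7 calls rested on single libraries. Dropping OP replicate 2, OP replicate 3 or HFD replicate 2 left 1 call among the 10. Dropping HFD replicate 3 left 4, and dropping OP replicate 1 gave 9. oma-2 kept its call each time (highest adjusted p = 0.0429 over all alternatives). Calls over all genes tested also fell, from 1083 to 221 without OP replicate 2, 332 without OP replicate 3 and 326 without HFD replicate 2. With any 1 library left out the median log2 fold change of the 10 was -1.11 to -0.83.

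**Figure D2:**
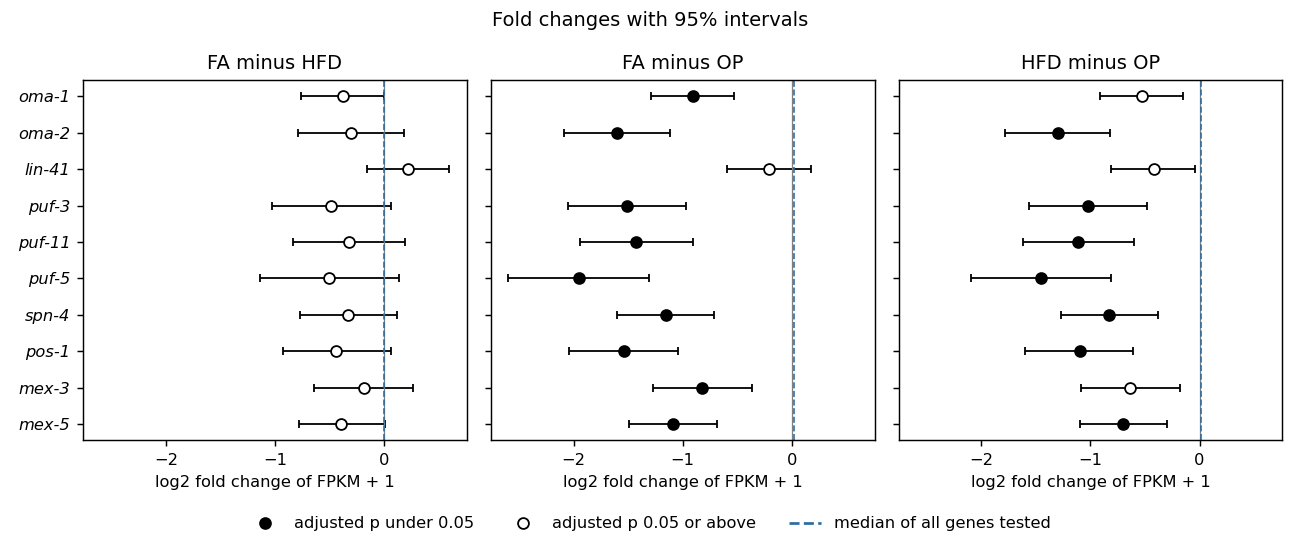
Log2 fold changes of FPKM + 1 with 95% intervals from limma, for FA minus HFD, FA minus OP and HFD minus OP; filled points have an adjusted p under 0.05, and the dashed line is the median of all genes tested. In FA minus OP 9 of 10 points are filled, in HFD minus OP 7 and in FA minus HFD 0.

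FA against HFD asks what farrerol added under high fat. None of the 10 passed, whereas 0.00679% of all genes tested were called, a single gene. In FA 9 of the 10 had lower means than in HFD, with a median log2 fold change of -0.35, where all genes tested had a median of 0. Of all genes tested, 2.5% had an unadjusted p under 0.05 in limma. At an unadjusted p under 0.05 there was 1 gene of the 10, oma-1, at 25.9 ± 4.59 FPKM in FA and 33.8 ± 2.19 in HFD (SD, n = 3 each; log2 fold change -0.38, 95% interval -0.76 to 0.00, limma adjusted p = 1); voom on recovered reads called 0, with 2 at an unadjusted p under 0.05.

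oma-1 was also the only gene of the 10 whose FA and HFD libraries did not overlap, against 5.1% of all genes tested. The intervals of the others reached from -1.14, in puf-5, to 0.60, in lin-41, the one gene with a higher mean in FA (11.4 ± 0.634 FPKM, against 9.75 ± 1.87 in HFD). A difference of these sizes was therefore not resolved with 3 libraries a group. Without FA replicate 1 the median was -0.53 and 7 genes had an unadjusted p under 0.05, with 0 past the adjusted threshold. As 9 of the 10 genes had their highest FA value in that library, leaving it out lowers their FA means by construction. The number was 0 without FA replicate 2 or 3, HFD replicate 1 or 3, or OP replicate 2 or 3. It was 1 without HFD replicate 2 and 3 without OP replicate 1.

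FA against OP sets high fat with farrerol beside the control. Here 9 of the 10 fell, all but lin-41, where 9.96% of all genes tested were called lower, and 0 rose, where 4.61% were called higher. Log2 fold changes had a median of -1.29, against 0.02 over all genes tested. puf-5 averaged 16.6 ± 6.98 FPKM in FA and 66.2 ± 19.5 in OP (SD, n = 3 each; log2 fold change -1.95, SE 0.29, limma adjusted p = 0.00296), the lowest FA level relative to OP among the 10. oma-2 followed, at 15 ± 3.05 FPKM in FA and 48.4 ± 14.2 in OP (-1.60, SE 0.22, limma adjusted p = 0.00202).

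Calls were also made for pos-1 (-1.54, adjusted p = 0.00276), puf-3 (-1.51, 0.00379), puf-11 (-1.43, 0.00379), spn-4 (-1.15, 0.00498), mex-5 (-1.09, 0.00419), oma-1 (-0.91, 0.00686) and mex-3 (-0.82, 0.0241). lin-41 had a log2 fold change of -0.21 (95% interval -0.59 to 0.18, adjusted p = 0.494). Every FA library was below every OP library in 9 of the 10, against 17.2% of all genes tested. This comparison shares the OP libraries with HFD against OP, so the 2 are not independent. The mex-3 call was lost without OP replicate 2 or 3 or FA replicate 2 or 3 (adjusted p up to 0.105).

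**Figure D3:**
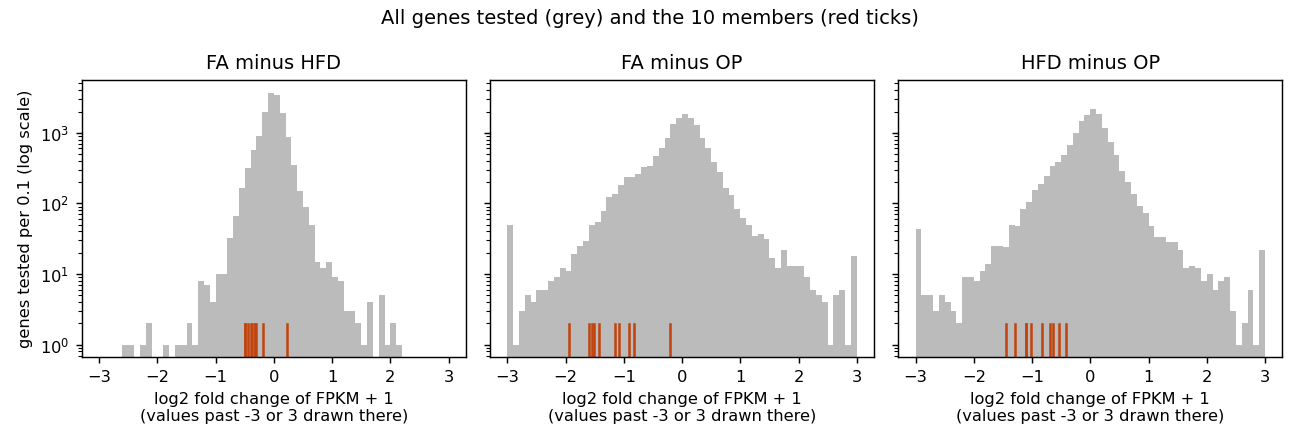
Number of genes tested per 0.1 of log2 fold change of FPKM + 1 (grey, log axis), with red ticks at the 10 genes, for FA minus HFD, FA minus OP and HFD minus OP. The ticks span -0.50 to 0.22, -1.95 to -0.21 and -1.45 to -0.42, while all genes centre near 0.

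Taking the HFD and FA means together against OP, the contrast with the most libraries, 9 of the 10 fell, where 10.5% of all genes tested were called lower. The exception was again lin-41 (-0.31, 95% interval -0.65 to 0.02, limma adjusted p = 0.193). The fold change of oma-2 was -1.45 (SE 0.19, limma adjusted p = 0.00113) and only 1.34% of the genes tested had a lower one. For puf-5 it was -1.70, with 0.849% of genes lower, and for mex-3 and oma-1 -0.73 and -0.72. Without OP replicate 2 or OP replicate 3, oma-1 and mex-3 no longer passed (adjusted p up to 0.0625 and 0.11), and 7 calls were left.

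Ratios of related genes within a library do not depend on how libraries are scaled. The 5 pairs compared were chosen after the values were seen, so their ratios are described without a test. The ratio of oma-1 to oma-2 was 1.65, 1.70 and 1.87 in FA, 1.75, 1.73 and 2.01 in HFD, and 1.18, 0.913 and 1.07 in OP. All 6 high-fat libraries were above all 3 OP libraries. The mean ratio was 1.79 ± 0.133 in HFD and FA (SD, n = 6) and 1.06 ± 0.136 in OP (SD, n = 3), a log2 difference of 0.76. The difference was 0.66 to 0.85 with any 1 library left out.

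The ratio of lin-41 to oma-2, the antagonists in the timing of maturation, was 0.637, 0.858 and 0.837 in FA, 0.515, 0.417 and 0.658 in HFD, and 0.326, 0.232 and 0.298 in OP. It was higher in all 6 high-fat libraries, with a log2 difference of 1.16, and sets the gene of the 10 with the smallest fold change against one with a large one. As lin-41 also has a role in the skin, its ratios in whole worms need not be those within oocytes. The ratio of lin-41 to oma-1 was 0.386, 0.505 and 0.447 in FA, 0.295, 0.240 and 0.327 in HFD, and 0.276, 0.254 and 0.279 in OP. The 6 high-fat libraries overlapped OP in this ratio (log2 difference 0.40), and the FA libraries lay above all HFD and OP ones.

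In the remaining pairs the mean ratios of the groups were closer to each other. Reads could be split between the near copies puf-3 and puf-11, so the ratio of this pair is uncertain. puf-3 to puf-11 was 0.983 ± 0.0551 in FA, 1.11 ± 0.0553 in HFD and 1.04 ± 0.0152 in OP (SD, n = 3 each), and the 6 high-fat libraries differed from OP by 0.00 on the log2 scale, while FA against HFD gave -0.17. mex-5 to its partner mex-6 was 2.41 ± 0.158 in FA, 2.5 ± 0.155 in HFD and 2.28 ± 0.115 in OP (log2 difference 0.10 for HFD and FA against OP).

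**Figure D4:**
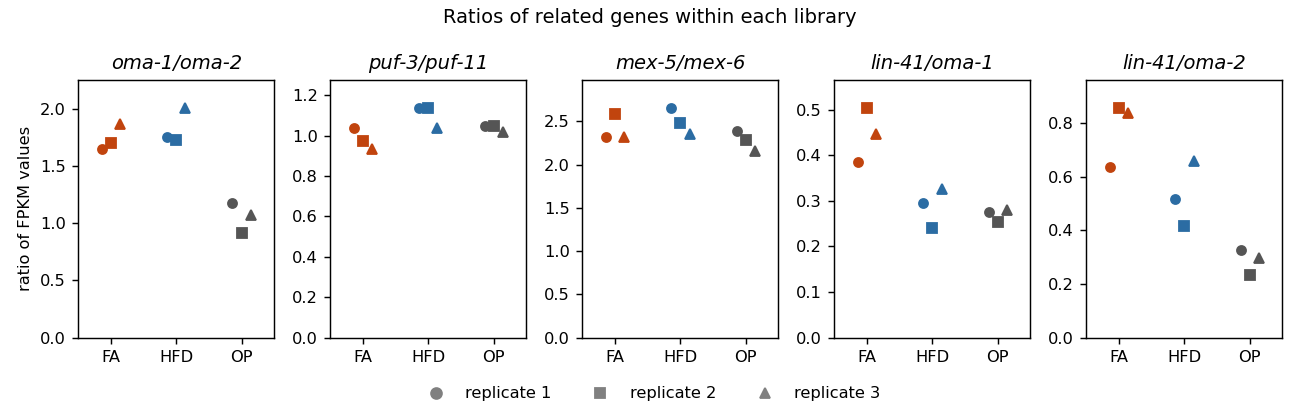
Ratio of FPKM values within each library for 5 pairs of genes, on linear axes from 0, with points by replicate. The ratios oma-1/oma-2 and lin-41/oma-2 are higher in all 6 FA and HFD libraries than in the 3 OP libraries, while puf-3/puf-11 lies between 0.933 and 1.14 throughout.

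Other genes of the same process were followed in lists, over HFD and FA against OP, where 10.5% of genes tested were called lower and 5.8% higher. Of 18 other maternal and germline RNA-binding genes, 7 fell and 0 rose, with a list median of -0.32. The lowest p-values were those of nos-2, a Nanos-family gene, at 2.57 ± 1.02 FPKM in FA, 3.14 ± 1.04 in HFD and 10.9 ± 3.94 in OP (SD, n = 3 each; log2 fold change -1.61, limma adjusted p = 0.00261), then puf-6 (-1.04, 0.00295) and mex-1 (-1.06, 0.00437). The Pumilio-family genes of the mitotic germline had values near 0: puf-8 -0.09, fbf-1 -0.06 and fbf-2 -0.02, with adjusted p of 0.721 to 0.949. With any 1 library left out, 5 to 9 of the 18 fell.

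Of 19 partners that store messengers or trim and extend their tails, 1 fell, the DEAD-box helicase gene cgh-1, at 162 ± 25.0 FPKM in FA, 183 ± 31.9 in HFD and 261 ± 45.6 in OP (-0.59, limma adjusted p = 0.031); 0 to 5 fell with 1 library left out, and the list median was -0.10. The poly(A) polymerase gene gld-2 had -0.10 and pab-1 0.00.

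Of 24 genes of maturation signalling and the cell cycle switch, 7 fell and 1 rose (median -0.17). The sheath gap junction gene inx-8 fell to 11.4 ± 2.38 FPKM in FA and 12 ± 0.904 in HFD, against 23.7 ± 0.991 in OP (SD, n = 3 each; -0.97, limma adjusted p = 0.00154), and the cyclin B genes cyb-2.1 and cyb-2.2 by -0.87 and -0.90 (adjusted p = 0.0044 and 0.00484; near copies whose reads may be split). Genes of the sheath pathway that answers the sperm signal, gsa-1, acy-4 and kin-1, had 0.31, -0.03 and 0.10 and did not pass. The riser, cdc-25.2, had 0.45 (adjusted p = 0.0413). Without OP replicate 2 or 3 the count of fallen genes was 3.

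Of 14 described messenger targets of these regulators, 5 fell and 1 rose, with a median of -0.41. pal-1, the target of MEX-3, fell (-0.73, limma adjusted p = 0.00658), as did zif-1 (-0.67, 0.0186) and cdc-25.3 (-1.15, 0.00671), the last from low levels of 2.11 ± 0.84 FPKM in OP, with 0.311 ± 0.263 in FA and 0.456 ± 0.212 in HFD (SD, n = 3 each). mab-10, a skin target of LIN-41, rose (0.46, 0.0446), and lin-29, the other skin target, had 0.41 and did not pass (0.0843). Without OP replicate 2 or 3, 1 of the 14 fell.

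Lists of cell contents show what moved beside the 10 genes. All 12 tested of 13 oocyte and eggshell markers fell, with a median of -1.33; perm-2, of the eggshell permeability barrier, averaged 36.1 ± 21.5 FPKM in FA, 51.1 ± 13.9 in HFD and 205 ± 25.5 in OP (SD, n = 3 each; -2.31, limma adjusted p = 0.000825), and perm-4 and egg-2 had -1.89 and -1.15 (0.00122 and 0.0019). Of 34 sperm genes 26 fell and 34 were lower (median -1.28), 16 fell without OP replicate 2, and their summed level was 1302 to 3369 FPKM in FA, 2393 to 2669 in HFD and 4619 to 6110.1 in OP; msp-10 (-1.80), msp-65 (-1.62) and ssp-19 (-1.53) had the lowest p. Of 27 tested mitotic and early meiotic germline genes 1 fell, lab-1 (-0.78, adjusted p = 0.0118), with a median of -0.10 and summed levels of 512 to 653 FPKM in FA, 583 to 615 in HFD and 511 to 721 in OP. When libraries were scaled to this early germline list, 8 of the 10 regulators still fell in HFD and FA against OP, with a median of -1.01, and mex-3 did not pass on that scale.

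Per library, the median of the 10 genes and the oocyte markers moved alike. Centred on each gene's mean, the 10 genes had a median of -0.13, -0.79 and -0.71 in FA replicates 1 to 3, 0.01, -0.38 and -0.15 in HFD, and 0.36, 0.94 and 0.94 in OP. The oocyte markers had -0.18, -1.01 and -0.83 in FA, -0.11, -0.41 and -0.20 in HFD, and 0.42, 1.14 and 1.10 in OP. Sperm genes had 0.14, -0.79 and -1.19 in FA, -0.25, -0.18 and -0.28 in HFD, and 0.58, 0.98 and 0.96 in OP. FA replicate 1 was the highest FA library in all 3 and OP replicate 1 the lowest OP library in all 3. The part that oocyte or sperm content had in the values of the 10 genes was not tested.

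**Figure D5:**
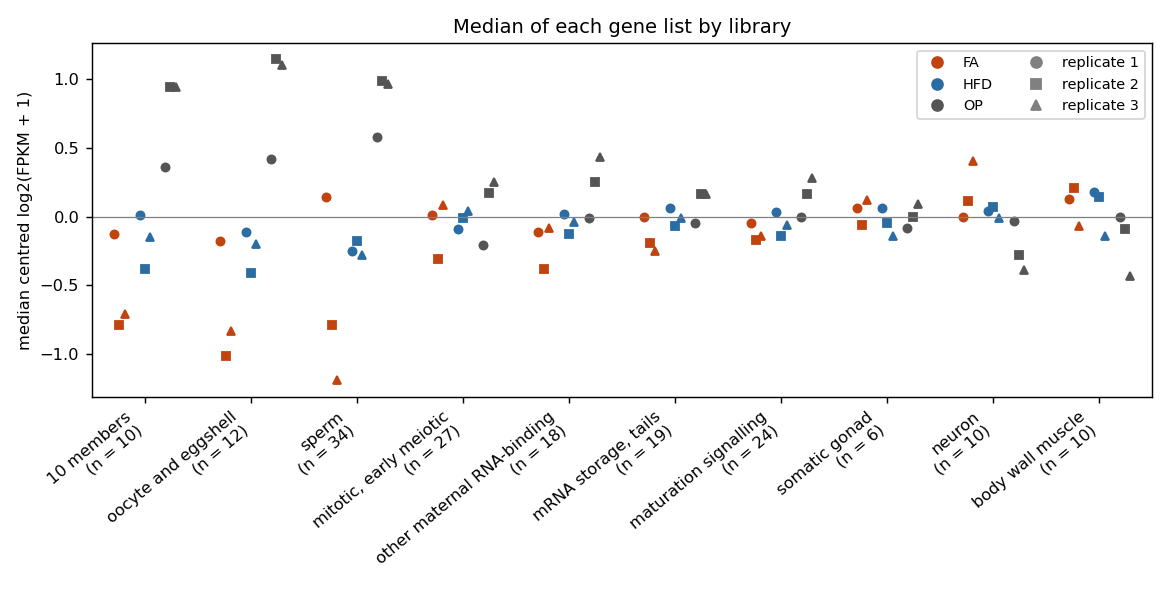
Median of centred log2(FPKM + 1) over the tested genes of each list, per library, for the 10 genes and 9 other lists. The 10 genes, the oocyte and eggshell markers and the sperm genes lie highest in the 3 OP libraries, while the early germline list spans -0.31 to 0.25 with the groups mixed.

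Lists of other tissues gave few calls over the same contrast. Of 6 somatic gonad genes 1 fell, the spermatheca gene sth-1 (-1.17, limma adjusted p = 0.00868). Of 10 body wall muscle genes 0 passed the threshold (median 0.25, with mlc-1 at 0.39 and mlc-2 at 0.41). Of 10 intestine genes 0 passed (median -0.06, with pept-1 at 0.43 and cpr-6 at -0.69). Of 10 neuron genes 1 rose, rab-3 (0.62, limma adjusted p = 0.0175), and the median was 0.33. Fold changes were negative in 1 body wall muscle, 6 intestine and 0 neuron genes, against 47.4% of all genes tested. Of 12 genes of embryos with zygotic transcription 3 passed the filter and 0 changed, hlh-1 and ceh-27 among them (0.25 and 0.32). The list's summed level was 11.2 to 15.2 FPKM in FA, 11.5 to 14.1 in HFD and 9.24 to 12.5 in OP. Most of it came from the 3 genes that passed (OP means of 4.38 FPKM in hlh-1, 4.07 in elt-1 and 1.73 in ceh-27). In all libraries 2 of the 12 were at 0. Whether the sum follows embryo content was not tested.

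Of 10 hypodermis and cuticle genes 1 fell and 2 rose. col-19, a collagen of the adult cuticle, had 139, 48.5 and 37.9 FPKM in FA, 171, 55.9 and 71.4 in HFD, and a mean of 899.9 ± 149.7 in OP (SD, n = 3), with the lowest OP value, 728, in replicate 1 (log2 fold change -3.56, limma adjusted p = 0.00065). Its FA and HFD libraries with the highest col-19 and its OP library with the lowest were those that stood out in the 10 genes. col-10 and dpy-7 rose (1.20 and 0.69, adjusted p = 0.00954 and 0.0438). Since the age of the worms is not given, stage and the high-fat condition cannot be told apart in these results.

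By pattern over the 9 libraries, the genes most like the 10, among 9894 protein-coding genes with a mean of at least 5 FPKM, were egg-5, mex-1, kca-1, egg-3 and gln-5. Their root mean square difference from the mean centred profile of the 10 was 0.052, 0.054, 0.075, 0.081 and 0.081 on the log2 scale. Among the 10 themselves this difference was smallest in spn-4 (0.061) and mex-5 (0.101) and largest in puf-5 (0.339) and lin-41 (0.446). egg-5 had 9.45, 5.91 and 6.33 FPKM in FA, 9.65, 7.56 and 9.79 in HFD, and 13.3, 21.7 and 20.7 in OP. As egg-5 was chosen by this pattern, its order of groups is not a separate finding.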

How the data were processed

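Whole worms were sequenced in 9 libraries with an NEBNext Ultra II kit, per the labels' protocols. The authors deposited 1 table of FPKM values, on WBcel235 per the submitters' processing notes; its aligner, read counter and strand setting are, in the sources used here, not stated. Overlapping genes and near copies may share reads. Control columns named OP50 were matched to the OP samples by number. Read numbers were recovered from the value that 1 read has for each gene length and library, and came out whole for 100% of values (tolerance 0.01 read); replicate libraries differed beyond sampling noise (chi-square over its degrees of freedom 17.5 to 80.3) and were all kept.

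Genes with at least 1 FPKM in at least 3 libraries were tested (14730), without the 52 rows that lack a gene name (0.0184% to 0.0293% of reads). limma 3.58.1 in R 4.3.3 was fitted across all genes and all 9 libraries on log2(FPKM + 1) with a mean-variance trend, two-sided, with Benjamini-Hochberg adjustment over all genes and a threshold of 0.05. Fold changes on this scale understate those of low genes. Of the identifiers, 46924 were found in Ensembl release 115, which gave the transcript annotation. No sequences were used here, so protein identity was not computed.

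The 10 genes and all lists were chosen with earlier results of these data known. Named are all 10, up to 3 genes of each list with the lowest p past the threshold over HFD and FA against OP (2 where none passed), and the 5 genes most like the 10 in pattern; others are named after their values were seen. Alternatives were pseudocount, filters, scalings, spread, replicate block, moderation, library weights, voom on recovered reads and each library left out. The table held 0 other per-sample columns.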

Additional observations from a re-analysis of the deposited data

How the results depend on the processing

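All fold changes of the 10 genes kept their sign in each comparison under every alternative run. For HFD against OP the 7 calls became 1 with no filter on low values, where 23638 genes were tested, and 4 with the replicate block, which ended those of puf-3, spn-4 and mex-5 (adjusted p = 0.0626, 0.0668 and 0.0743); the block changed no other call. Replicate numbers share only a number: deviations of same-numbered libraries correlated at -0.23 to 0.30, and libraries did not all correlate best with their own number. Library weights raised the calls to 10. With 1 library left out the calls ranged from 1 to 9 for HFD against OP, from 8 to 9 for FA against OP, and from 7 to 9 for both against OP. With scaling to the early germline list the median log2 fold change of all genes in FA against OP was 0.15, against 0.02 as reported, and it left 5, 8 and 8 calls in HFD, FA and both against OP. FA against HFD had 0 calls under every alternative. The cause of these changes was not tested. Over all genes, the count for HFD against OP, 1083, was 472 with no filter, 637 with germline scaling, 3302 with library weights and 221 to 1486 with 1 library left out. For FA against OP, 2146 became 1424 with no filter and 883 to 2550, and for both against OP 2397 became 4701 with library weights and 919 to 2804. The puf-3 to puf-11 difference of 0.00 was -0.01 without OP replicate 3 and -0.02 without HFD replicate 1 or 2, and reached 0.04 without FA replicate 3. With 3 libraries a group, small differences between FA and HFD are beyond the precision of these data.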
